A study of Mus musculus with 4 samples.

Results

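Gene expression of untreated mouse intestinal organoids was compared between an earlier and a later day of culture, as 1 pair of arrays. The pair was chosen by sample title: the array of untreated organoids collected at day 6 and the array of untreated organoids collected at day 4, which are 2 of the 4 arrays in the study. Both carry the Apc fl/fl genotype, in which both copies of the Wnt pathway brake Apc are flanked by recombination sites and are lost only once a recombinase acts. The other 2 arrays are Apc fl/fl organoids that received 4OHT (4-hydroxytamoxifen, which switches on a tamoxifen-dependent recombinase) for 24 h to recombine Apc, and were collected at day 4 and day 6. The days were counted from the treatment.

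Which cells express the recombinase, whether untreated cultures received a vehicle, the part of the intestine the organoids came from and whether the arrays stand for separate cultures are not given in the sources used here. The untreated organoids are labelled as normal, and whether Apc was intact in them was not tested. Each condition has 1 array, so a difference between days has no replicate error, and neither p-values nor standard deviations are given. What is called higher or lower below compares these arrays, not days of culture in general.

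Intestinal organoids are closed epithelial buds grown in a gel from crypts or single stem cells, without fibroblasts, vessels or immune cells. Lgr5-positive stem cells at the bud tips, next to Paneth cells, divide and give rise to transit-amplifying cells and then to enterocytes, goblet cells, enteroendocrine cells and tuft cells. Shortly after passage, organoid epithelium is known to pass through a repair-like state with fetal genes such as Clu and Anxa1, before crypt buds and a villus-like domain with absorptive enterocytes form. In bulk RNA, fewer cells of a type and less RNA per cell cannot be told apart.

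The values are deposited array intensities without a stated scaling, for 45101 probe sets. A difference below is day 6 minus day 4 of log2(intensity + 16) after the 2 untreated arrays were quantile normalized, that is, given the same distribution of values, unless it is marked as deposited. The added 16 damps noise at low intensity and makes the fold change of dim genes look smaller. Each of 18193 genes is represented by its brightest probe set, and counts refer to the 9097 genes in the brighter part of the array, those with a mean log2 level at least that of the median gene, an intensity of 37.7. Intensities are quoted as deposited, so a gene can have a higher deposited intensity at day 6 and a normalized difference near 0. A pair of values given for a gene is its intensity at day 4 and at day 6, and a single signed value is its log2 difference. "The 4OHT pair" means the same difference between the 2 recombined arrays, which share no array with the untreated pair.

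The arrays differed between days in ways that no gene list describes. Spiked hybridization controls, bacterial transcripts added in known amounts, had a mean log2 intensity of 12.33 at day 4 and 10.07 at day 6, a difference of -2.26 over 18 probe sets. Spiked poly-A controls differed by -2.89 over 24 probe sets. Between the 4OHT arrays the same controls differed by -1.07 and -1.06. The gap between the 3' and 5' probe sets of Actb, a measure of how far labelled RNA extends from the 3' end, was 2.96 log2 units at day 4 and 1.72 at day 6, and that of Gapdh was 1.42 and 0.86. The same gaps were also smaller at day 6 in the 4OHT pair, 3.90 against 2.34 for Actb and 2.29 against 1.42 for Gapdh. Spike level, 3' bias and day move together in this design and cannot be told apart, and their part in each result below was not tested.

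**Figure D1:**
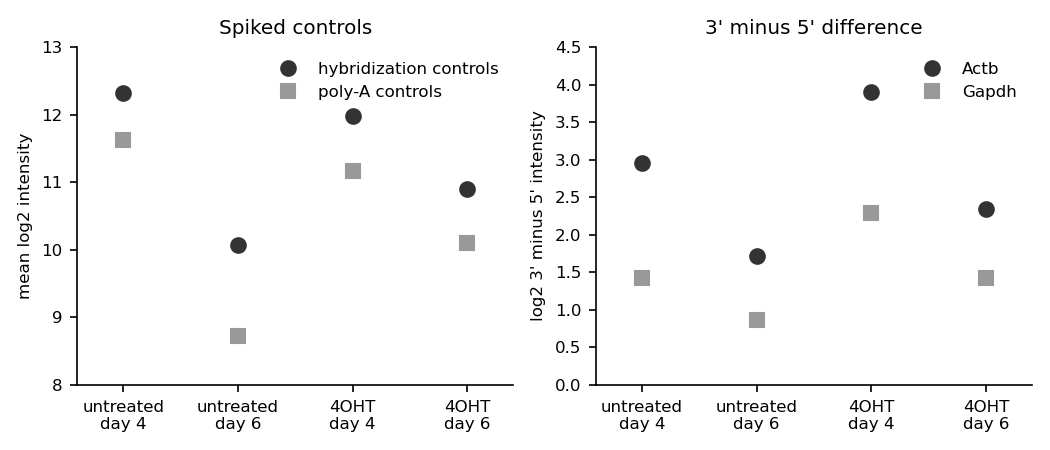
Control probe sets on each array: log2 intensity, as deposited, of spiked and housekeeping controls on the 4 arrays (untreated and 4OHT, day 4 and day 6). Both kinds of spike were dimmer at day 6 in both pairs, and the 3' minus 5' gaps of Actb and Gapdh were smaller.

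After quantile normalization, 1428 of 9097 genes (15.7%) had at least 2-fold more signal at day 6 and 1498 (16.5%) at least 2-fold less. As deposited, the split was 3008 higher (33.1%) and 594 lower (6.53%), because the median gene past the filter was 0.56 higher at day 6 as deposited and 0.02 higher after quantile normalization. All 1428 higher genes also passed 2-fold as deposited, and 594 of the 1498 lower genes did. In turn, all 594 genes lower as deposited were also lower after normalization. This overlap follows largely from the shift of 0.56 and does not show that the higher calls are firmer than the lower ones. A gene that is lower only after normalization is lower relative to the other genes of its array. Among the higher genes, 212 differed by at least 4-fold, and among the lower genes 217.

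**Figure D2:**
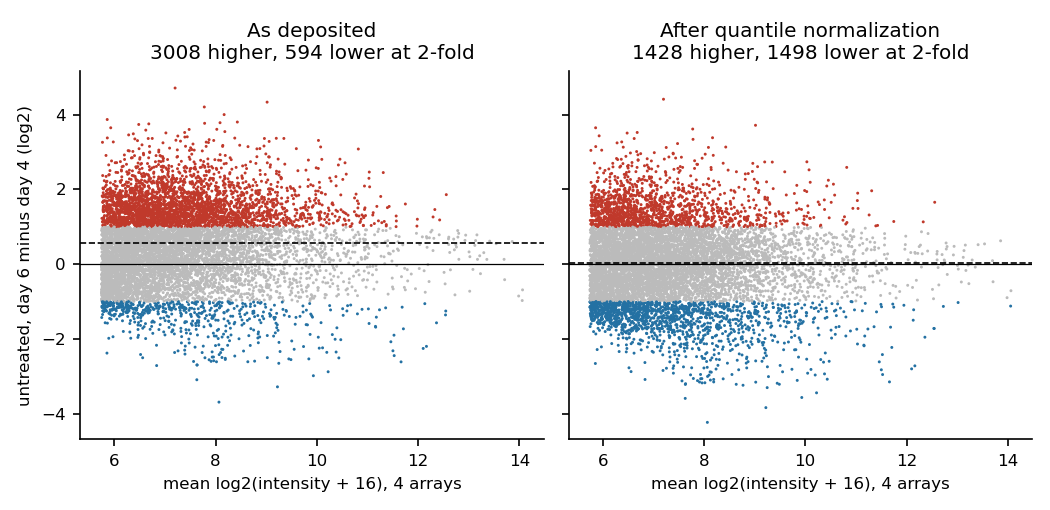
Difference between day 6 and day 4 against level in untreated organoids, as deposited (left) and after quantile normalization (right). Each point is 1 of the 9097 genes past the level filter. The x axis is its mean log2 level and the y axis its log2 difference, and the dashed line is the median. Coloured points differ by at least 2-fold: 3008 higher and 594 lower as deposited, and 1428 higher and 1498 lower after normalization.

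Several genes have more than 1 probe set, and these did not always go the same way. Of the 1428 higher genes, 491 had another probe set past the filter, and in 214 of them (43.6%) it was also at least 2-fold higher, while in 54 (11%) one was at least 2-fold lower. Of the 1498 lower genes, 671 had another, at least 2-fold lower in 194 (28.9%) and at least 2-fold higher in 110 (16.4%). A gene's direction below is that of its brightest probe set, and other probe sets are given for many, not all, of the genes where they go another way.

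The genes with the largest positive differences included transporters and peptidases of absorptive enterocytes. Slc6a20a, which takes up proline and related imino acids at the brush border, had an intensity of 28.3 at day 4 and 1149 at day 6, a 21.4-fold difference, the largest on the higher side. Enpep, the brush border aminopeptidase A, had 193 and 4216 (13.2-fold), and Mme, the peptidase neprilysin, 8.07 and 235 (8.87-fold). The sulfate transporter Slc13a1 had 11.6 at day 4 and 294 at day 6. At day 4 all of these but Enpep were below the intensity that served as the level filter, and at day 6 all were well above it.

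The rest of the 15 genes with the largest positive differences were enzymes, transporters and genes of other roles. Drug and retinoid enzymes were Ugt2b5 (3.65), Cyp2c68 (3.51), Cyp2c65 (3.39) and Aldh1a1 (3.14), all log2 differences. Reg3g, a secreted lectin that kills Gram-positive bacteria, differed by 3.62, the membrane ATPase Atp13a3 by 3.34 and the heme exporter Flvcr1 by 3.25. The others were the glycosyltransferase Mgat4c (3.44), the zinc finger gene Zfp950 (3.53), Ttc14 (3.37) and Tmem33, of the endoplasmic reticulum membrane (3.23). After 4OHT, 14 of the 15 were also at least 2-fold higher. The exception was Ugt2b5, with 15.1 and 441 in untreated organoids but 11.3 and 13.3 after 4OHT. Only 3 of the 15 (Tmem33, Ttc14 and Zfp950) had another probe set past the filter, and each of these had at least 1 that was also 2-fold higher.

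The genes with the largest negative differences included regulators of transcription and RNA, which are not products of 1 intestinal cell type. Vegfa, the growth factor of blood vessels, had 1047 at day 4 and 66.1 at day 6, 18.9-fold lower, but its other probe set past the filter differed by only -0.35. The transcription factor Nfia had 1686 and 159, and Rapgef6, an activator of Rap GTPases, 532 and 48.1. Chromatin and RNA genes among the 15 were Pnisr (-3.57), Ankrd11 (-3.45), Chd4 (-3.24), Rsrc2 (-3.16), the noncoding RNA Airn (-3.19), and Rrp1b (-3.31) of the nucleolus. The others were Golga1 (-3.22), Fam122a (-3.22), the secretory cargo receptor Mia3 (-3.18), the replication clamp loader Rfc1 (-3.18), Usp36 (-3.16) and Clps, the pancreatic lipase cofactor colipase (-3.22).

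Other probe sets did not back all of these 15 genes. All but Fam122a had another probe set past the filter (14 genes), and in 4 of them (Pnisr, Ankrd11, Chd4 and Clps) at least 1 was also 2-fold lower. In 3 of them (Pnisr, Ankrd11 and Rsrc2) at least 1 was 2-fold higher. Clps was the clearest of these, with a second probe set at -2.48. All 15 were at least 2-fold lower in the 4OHT pair too.

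The plot of list medians gives the order of the 47 gene lists described from here on, and 3 of the 8 enterocyte lists (microvillus structure, villus tip and differentiation factors) have medians just below 0. Brush border hydrolases, drug metabolism, ion transport, amino acid transport and protein folding in the endoplasmic reticulum lie on the higher side, and fetal-like genes, Paneth cell genes, the integrated stress response and glycolysis on the lower side. The median over all genes past the filter was 0.02, or 0.56 as deposited. Over all genes whatever their level it was -0.058, or -0.082 as deposited. List medians take members of any level, so the first pair is the background for lists mostly past the filter. For lists with many members under the filter the second pair is the nearer background. Shares of 15.7% higher and 16.5% lower are the background for each count, and 33.1% and 6.53% for a count as deposited. Where counts as deposited are given as a pair, the first is of genes at least 2-fold higher and the second of genes at least 2-fold lower.

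**Figure D3:**
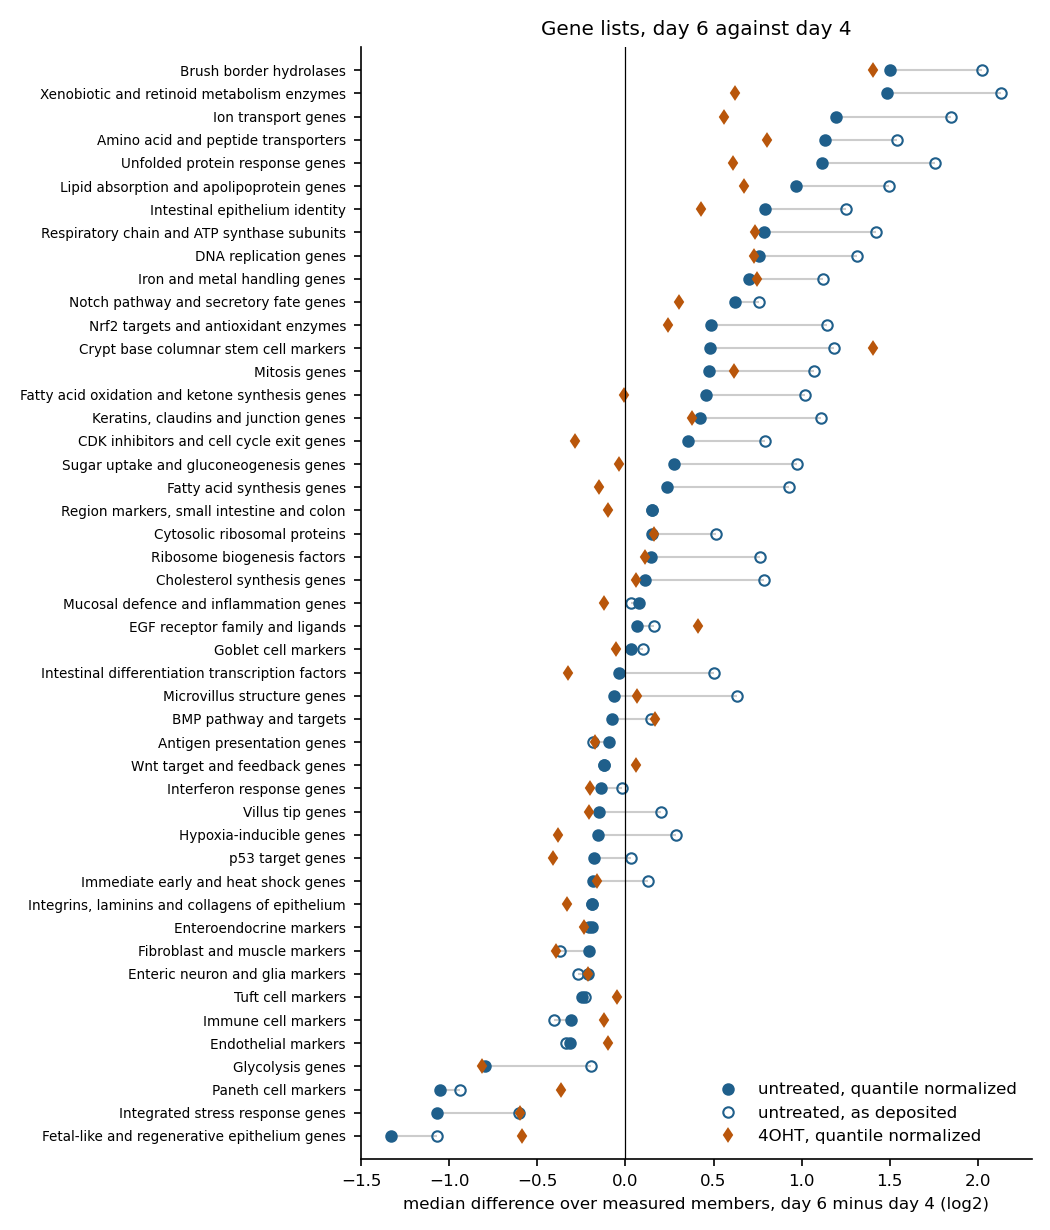
Median log2 difference, day 6 minus day 4, of each of the 47 gene lists, over all measured members, in untreated organoids after quantile normalization, as deposited, and in the 4OHT pair. In untreated organoids after normalization, brush border hydrolases have the highest median (1.5) and the fetal-like genes the lowest (-1.33). As deposited, the xenobiotic enzymes have a higher median (2.14) than the hydrolases (2.03).

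The organoids carried an intestinal epithelial program on both days. All 12 identity markers were past the filter. Epcam, the epithelial adhesion molecule, had 906 at day 4 and 5080.0 at day 6, Vil1, the actin bundler of microvilli, 852 and 1865, and Cdx2, the intestinal master transcription factor, 456 and 712. After normalization 5 of the 12 were at least 2-fold higher and none lower, with a median difference of 0.79 (deposited 1.25). The 5 were Epcam, Cdh1 (1.60), the junction proteins Cldn7 (1.72) and Ocln (1.63), and Cdx1 (1.29). Epcam differed by 1.90, but its second probe set by -0.39. Cdx2 was level (-0.066), and the keratin gene Krt18 was lower by less than 2-fold (-0.96).

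Markers of other tissues were scarce. Of the region markers only 3 of 10 were past the filter, so they do not place the organoids firmly along the gut. Fabp6, the bile acid binding protein of the ileum, had 344 at day 4 and 2629 at day 6, and Cubn, a vitamin B12 receptor subunit of the ileum, 16.6 and 317. Both were higher, by 4.83-fold and 8.78-fold. Gata4, a proximal marker, was under the filter with 28.0 and 15.6, and so was the colonic Car1 with 16.5 and 45.5.

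Of 12 fibroblast and muscle markers 1 was past the filter (Acta2, 56.7 and 34.2), and their summed intensity was 306 at day 4 and 171 at day 6. Endothelial markers summed to 205 and 169 over 8 genes, 2 of them past the filter, and neuron and glia markers to 165 and 124 over 8 genes, 1 of them past it. After 4OHT the 3 sums were 301 and 171, 181 and 146, and 191 and 123. The defining genes Ptprc (the pan-leukocyte antigen, 9.92 and 6.23), Pecam1 (10.8 and 9.98) and Col1a1 (14.9 and 11.2) were under the filter, with low intensities on both days. The immune list summed to 1515 and 693 over 13 genes (4OHT pair 2358 and 2020.3). Of these genes 3 were past the filter, and 2 were at least 2-fold lower. Most of the sum was Lyz2, a lysozyme gene with 1184 and 497. Its sequence is close to that of the Paneth cell gene Lyz1, so the 2 may share signal. Cd4 (88.5 and 48.4) and Cd8a (54.2 and 32.1) were past the filter too.

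Enzymes that finish digestion on the enterocyte surface were among the clearest groups on the higher side. Of 11 brush border hydrolases past the filter, 9 reached 2-fold on the higher side and 1 on the lower (as deposited 9 and none), and the median over all 14 measured was 1.5 (deposited 2.03, 4OHT pair 1.41). After Enpep and Mme came the metalloproteases Mep1a, with 50.9 at day 4 and 652 at day 6, and Mep1b, with 218 and 2085. Alpi, the intestinal alkaline phosphatase that is a standard enterocyte marker, had 132 and 461, a difference of 1.01. Dpp4 differed by 2.28, the maltase Mgam by 1.85, Naaladl1 by 1.68 and Anpep by 1.32. The 1 lower member was the dipeptidase Ace (-1.22). Lactase (Lct, 19.5 and 68.3) was under the filter.

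Several transporters of amino acids were higher as well. Of 9 amino acid and peptide transporters past the filter 5 were at least 2-fold higher and none lower (median of 12: 1.13, deposited 1.54, 4OHT pair 0.80). Besides Slc6a20a they were Slc6a19, the main carrier of neutral amino acids (26.9 and 216), both subunits of the cystine and dibasic amino acid carrier, Slc7a9 (119 and 734) and Slc3a1 (93.7 and 519), and the aromatic amino acid carrier Slc16a10 (1.31, but -0.20 in the 4OHT pair). The peptide transporter Slc15a1 was dim, with 14.4 and 79.8.

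Among ion transport genes 10 of 13 past the filter reached 2-fold on the higher side and 1 on the lower (as deposited 11 and none). The median over 16 was 1.19 (deposited 1.85, 4OHT pair 0.56). They included chloride channels and carriers of both crypt and villus. Cftr, the apical chloride channel of crypt cells, had 70.0 and 527, and Slc26a3, the chloride and bicarbonate exchanger of surface cells, 68.2 and 604. Slc12a2, which loads chloride into secreting cells, had 291 and 2103, though 1 of its 2 other probe sets was at -1.02. Kcne3, a potassium channel subunit, differed by 2.03 and the chloride channel Clcn2 by 2.27. The bicarbonate carrier Slc4a4 was the lower one (-1.59), and 2 of its 3 other probe sets were at least 2-fold higher, so its direction was not settled.

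Of 19 lipid absorption and apolipoprotein genes past the filter 10 were at least 2-fold higher and 1 lower (as deposited 12 and none, median of 21: 0.97, deposited 1.5, 4OHT pair 0.67). Mttp, which loads lipid onto apolipoprotein B, had 55.6 at day 4 and 802 at day 6 (7.93-fold), and Apob, the scaffold of chylomicrons, 192 and 2124 (6.5-fold). The apolipoproteins differed among themselves: Apoa1 was higher (1.12), Apoc3 within 2-fold (0.37) and Apoc2 the 1 lower gene (-1.10). The cholesterol importer Npc1l1 and exporter subunit Abcg5 differed by 1.85 and 1.91, and Fabp2 by 1.64. The fatty acid binding protein Fabp1 (121 and 208, difference 0.041) and the apolipoprotein Apoa4 (909 and 1623, difference 0.15) were level after normalization. The lipid droplet coats Plin2 (-0.21) and Plin3 (-0.55) and the fatty acid carrier Slc27a4 (-0.61) were on the lower side by less than 2-fold.

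Sugar uptake and gluconeogenesis genes differed among themselves. Slc5a1, the sodium-coupled glucose carrier of the brush border, had 347 and 1718, Slc2a2, the basolateral glucose exit carrier, 44.9 and 307, and the gluconeogenic Fbp1 225 and 1009. These were the 3 of 8 past the filter at 2-fold, with none lower (as deposited 4 and none), and the median over 10 was 0.28 (deposited 0.97, 4OHT pair -0.035). The fructose carrier Slc2a5 was level (-0.10), and Pck2 (-0.79) and Tkfc (-0.73) were lower by less than 2-fold.

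Genes that build the microvillus were mostly within 2-fold. Of 13 past the filter 1 was at least 2-fold higher, the actin bundler Pls1 (269.8 and 1292), and none lower, and as deposited 5 and none. Their median was -0.065 after normalization, 0.63 as deposited and 0.066 in the 4OHT pair, so its sign turns on the scaling. Both untreated values are close to the medians over genes past the filter. Vil1 differed by 0.45, the motor Myo1a by -0.59 and the intermicrovillar cadherin Cdhr5 by -0.27.

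Villus tip genes also stood near the background. Of 12 past the filter 1 was at least 2-fold higher and 3 lower (as deposited 4 and none), with a median of -0.15 after normalization but 0.20 as deposited. Ada, the tip enzyme adenosine deaminase, had 47.1 and 53.3, and Krt20, a keratin of mature cells, 664 and 1451. The lower members were Cldn4 (-1.54), Klf4 (-1.49) and Atf3 (-1.30), and the higher one was Cdh1.

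The transcription factors of intestinal differentiation were mostly level. Hnf4a, the main driver of enterocyte genes, had 2346 at day 4 and 3299 at day 6, a difference of -0.039, with 1 other probe set 2-fold or more above and 1 below level. Of 11 past the filter none was at least 2-fold higher and 2 were lower, Gata6 (-1.77, but 0.87 in its other probe set) and Klf4, and as deposited the counts were 4 and 1. Their median was -0.034 after normalization and 0.50 as deposited (4OHT pair -0.33). Hnf4g, the partner of Hnf4a, was under the filter, with 13.7 and 161, a difference of 2.39.

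Enzymes that act on drugs, toxins and retinoids formed the longest list on the higher side. Of 22 past the filter 15 were at least 2-fold higher and none lower, with a median over 26 of 1.49 (deposited 2.14). Cyp3a11, the main drug-oxidizing cytochrome P450 of the gut and liver, had 97.3 at day 4 and 967 at day 6, Cyp2c65 125 and 2244, and Cyp4f14 128 and 1749. Members of the Cyp2c and Cyp3a families are close in sequence, so their probe sets may share signal. Aldh1a1, which makes retinoic acid, had 134 and 2076. In the same list the glutathione transferases were level or below 2-fold (Gsta4 0.068, Gstm1 0.90, Gstm3 0.52), and Rbp2, the retinol carrier of enterocytes, was under the filter. In the 4OHT pair 11 members were at least 2-fold higher and the median was 0.62. Besides Ugt2b5, which is no list member, Rdh7 (1.82 against 0.13), Cyp2b10 (2.54 against 0.82) and Adh1 (1.06 against -0.13) had smaller values there, and these differences between pairs were not tested.

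Mitochondrial genes were moderately higher as a group. Of 20 subunits of the respiratory chain and ATP synthase 6 were at least 2-fold higher and none lower (as deposited 18 and none), with a median of 0.79 (deposited 1.42, 4OHT pair 0.73). Atp5b, the catalytic subunit of ATP synthase, had 1115 and 4138, Ndufs1 of complex I 92.8 and 587, and Sdha of complex II 313 and 1492. Only Ndufv1 was on the lower side (-0.62). Fatty acid oxidation genes had 4 of 17 at least 2-fold higher and 2 lower after normalization, and 9 and none as deposited (median of 18: 0.46, deposited 1.02, 4OHT pair -0.011). The peroxisomal enzyme Ehhadh (2.23), the mitochondrial Hadhb (1.75), Cpt2 (1.31) and Acadm (1.13) were higher, and Acaa1a (-1.18) and Crat (-1.12) lower. Their regulator Ppara had 53.3 and 149, a difference of 0.76.

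Glycolysis lay on the other side. The median over 14 genes was -0.80 after normalization, -0.20 as deposited and -0.81 in the 4OHT pair. Most members differed a little in the same direction: of 13 past the filter 2 were at least 2-fold lower, Hk1 (143 and 77.5) and Pfkm (67.1 and 30.2). As deposited no member was at least 2-fold lower. Pkm differed by -0.90, Aldoa by -0.91, Pgk1 by -0.84 and the glucose carrier Slc2a1 by -0.75, while Ldha was near level (-0.20). The 1 higher member was Slc16a1, a carrier of lactate and other monocarboxylates, with 69.8 at day 4 and 805 at day 6.

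Hypoxia-inducible genes had no common direction. Their median over 17 was -0.15 after normalization and 0.29 as deposited, and 1 of 13 past the filter was at least 2-fold higher and 4 lower (as deposited 2 and 1). The lower ones were Vegfa, Egln3 (659 and 366), Ankrd37 (197 and 129.7) and Bnip3 (414 and 315), and only Vegfa was 2-fold lower as deposited. Car9, a surface carbonic anhydrase used as a hypoxia marker, differed by 0.71 and the demethylase Kdm3a by 1.51.

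Lipid synthesis genes were mostly within 2-fold after normalization. Of 16 cholesterol synthesis genes 3 were at least 2-fold higher, Sc5d (1.78), Sqle (1.74) and Msmo1 (1.63, second probe set -0.75), and 1 lower, Mvd (-1.86), with a median of 0.11 (deposited 0.79) and deposited counts of 6 and 1. Of 13 fatty acid synthesis genes past the filter 3 were at least 2-fold higher and 2 lower, but as deposited 7 and none. Their median over 14 was 0.24 after normalization, 0.93 as deposited and -0.15 in the 4OHT pair. The desaturases Scd2 (683 and 4571) and Fads2 (69.7 and 425) and the regulator Srebf1 (1.17) were higher, while Fasn, which builds palmitate (-1.19), and Acss2 (-1.41) were lower, neither of them 2-fold as deposited. Other probe sets of Scd2 spanned -2.43 to 1.04, and those of Fads2 -0.30 to -0.24.

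Stem cell markers did not share one direction in untreated organoids. Lgr5, the receptor that marks crypt base columnar cells, had 254 at day 4 and 597 at day 6, a difference of 0.48 (1.18 as deposited), and its second probe set was at -0.23. Olfm4, a secreted stem cell marker, had 833 and 4167 (3.26-fold higher), and Ascl2, the stem cell transcription factor, 112 and 139 (-0.36). Of 14 past the filter 6 were at least 2-fold higher and 1 lower (as deposited 8 and 1), with a median over 15 of 0.48 (deposited 1.18).

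The higher stem cell markers had functions of their own beside marking the cells. Lrig1, which restrains the EGF receptor family, had 47.9 and 619 (7.15-fold), and its second probe set gave 3.0. Rgmb, a BMP co-receptor, had 19.4 and 278, and all 3 of its other probe sets were at least 2-fold higher. Smoc2 (1.59), Cdca7 (1.41) and Slc12a2 completed the 6. The RNA-binding gene Mex3a was the lower one (137 and 29.6). In the 4OHT pair 8 were at least 2-fold higher, the median was 1.40 and Lgr5 had 313 and 1186. The 2 pairs were not tested against each other.

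Wnt target genes went both ways after normalization. Of 15 past the filter 4 were at least 2-fold higher and 3 lower (as deposited 7 and none), with a median of -0.12 (-0.12 as deposited, 0.062 in the 4OHT pair). Axin2, the feedback inhibitor most used as a readout of the pathway, had 89.5 and 332 (1.08), but its second probe set was at -2.11. The ubiquitin ligase Znrf3 (1.30) and the adhesion receptor Cd44 (60.7 and 211) were higher. Sox4 was higher by its brightest probe set (1.67), and 4 of its 5 others were at least 2-fold lower. Sp5 (-1.30), Nkd1 (-1.26) and Ccnd1 (-1.19) were lower, none of them 2-fold as deposited. Myc differed by 0.75.

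Notch, EGF and BMP genes were described by fewer members. For Notch, 3 of 9 past the filter were at least 2-fold higher and none lower, and as deposited 6 and none (median of 12: 0.62): the receptor Notch1 (1.13, second probe set -0.96), the nuclear partner Rbpj (1.04) and the feedback gene Nrarp (1.24, second probe set -1.34). The target Hes1, which holds cells in the absorptive lineage, had 85.2 and 227, and Atoh1, which starts the secretory lineage, 35.7 and 45.3. In the EGF list Erbb3 (242 and 997) and Lrig1 were higher and the ligand Hbegf lower (-1.21). The list median was 0.066, and the deposited counts of 9 past the filter were 4 and none. In the BMP list the receptor Bmpr2 (42.6 and 269) was higher and Id4 (88.7 and 28.9) lower, with a median of -0.074 after normalization and 0.14 as deposited, where the counts of 9 were 3 and 1.

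Proliferation genes were on the higher side by modest amounts. Of 19 DNA replication genes past the filter 4 were at least 2-fold higher and none lower (median of 20: 0.76, deposited 1.32, 4OHT pair 0.73), and of 19 mitosis genes 4 were higher and none lower (median 0.47, deposited 1.07, 4OHT pair 0.62). Both counts of 4 of 19 are near the background share of 15.7%, and as deposited 12 of the first list and 11 of the second were higher, against a share of 33.1%, and none lower. Mcm4 and Mcm5, subunits of the replicative helicase, had 96.9 and 545, and 200.2 and 735. Bub1, a spindle checkpoint kinase, had 31.1 and 182, and Top2a 144 and 699. Mki67, the usual proliferation marker, had 677 and 657, which is a normalized difference of -0.74, so it did not follow the others. Among cell cycle exit genes, Cdkn1a (-1.01) and Btg2 (-1.36, second probe set 0.87) were lower and Rb1 higher (1.47), while as deposited 3 of 9 were at least 2-fold higher and none lower.

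Protein synthesis machinery was close to level. Of 14 ribosomal protein genes none was at least 2-fold higher and 1, Rps6 (-1.29), was lower, with a median of 0.15. Among 18 ribosome biogenesis factors 1 was higher, Rrs1 (1.23), and 4 lower. These were Wdr43 (-2.09, second probe set 0.68), Nolc1 (-1.65, with others from -1.62 to 2.05), Nop56 (-1.42) and Ppan (-1.06). Their median was 0.15, and 0.76 as deposited, where the counts were 6 and 1.

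Paneth cell products were lower at day 6 in untreated organoids. Ang4, an antimicrobial ribonuclease, had 4838 at day 4 and 999.5 at day 6 (6.98-fold lower), and Mmp7, the protease that activates defensins, 1146 and 340.4 (5.20-fold lower). The lysozyme gene Lyz1 had 17233 and 8766 (2.18-fold lower). Of 8 measured markers past the filter 6 were at least 2-fold lower and 1 higher, and 5 of them were also 2-fold lower as deposited, against a background of 6.53%. The median over 12 was -1.05 (deposited -0.94), and 8 of the 20 entries, most of them defensins, were not analysed here.

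The other Paneth list members on the lower side were the lectin Itln1 (5701 and 2379.5), the lipase Pnliprp2 (1309 and 342) and the stress gene Nupr1 (692 and 149.7). The second probe sets of Ang4 (-2.49), Nupr1 (-2.73), Pnliprp2 (-1.48) and Lyz1 (-1.18) were lower as well. The higher member, the guanylate cyclase ligand Guca2b (1.07), is also made by enterocytes, and its relative Guca2a differed by 1.49. In the 4OHT pair Lyz1 had 23229.6 and 23910.3, Ang4 9855 and 7629, and Mmp7 3449 and 2282. There 1 member was at least 2-fold lower and the median was -0.37. That these differences were larger in untreated organoids was not tested.

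Goblet markers went both ways, while most enteroendocrine and tuft markers lay on the lower side by small amounts. In the goblet list 3 of 15 past the filter were at least 2-fold higher and 4 lower (as deposited 6 and 2, median of 17: 0.031, deposited 0.10). Over the 15 past the filter alone the median was -0.47 after normalization. Muc2, the gel-forming mucin, had 352 and 379, and Tff3, a peptide secreted with it, 4783 and 4106. Spink4 stood apart with 6795 and 1465 (6.60-fold lower). Ccl6 (-1.61), the transcription factor Foxa3 (-1.24) and Zg16 (-1.16) were also lower. The higher members were the mucins Muc3 (158 and 992) and Muc4 (1.40), which sit in the membrane of enterocytes too, and Clca1 (1.33).

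Only 10 of 22 enteroendocrine genes were past the filter, and 2 were at least 2-fold lower, the hormone Sct (122 and 60.1) and the granin Scg3 (65.3 and 27.5). Chga, the granin common to these cells, had 61.5 and 44.6. None was at least 2-fold higher, and none was 2-fold lower as deposited. The median was -0.19, with 6 of the 22 above 0. Of 6 tuft genes past the filter 1 was higher, Rgs13 (1.34). The tuft regulator Pou2f3 had 73.4 and 46.8, and the list median was -0.25, with 2 of 16 above 0. Lists of cells from other tissues, also mostly under the filter, had similar medians. These were -0.21 (fibroblast and muscle), -0.31 (endothelial), -0.31 (immune) and -0.21 (neuron and glia). Small negative medians were therefore not particular to enteroendocrine and tuft markers.

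Fetal-like and regenerative genes had the lowest median of all lists. Clu, the marker of revival stem cells that appear after injury, had 1093 at day 4 and 217 at day 6 (7.57-fold lower), and all 3 of its other probe sets were at least 2-fold lower (-3.18 to -1.63). Anxa1, a fetal epithelial annexin, had 509.6 and 161, Sprr1a, a squamous-type repair gene, 238 and 40.4, and Basp1 80.4 and 16.5. Of 12 past the filter 10 were at least 2-fold lower and none higher, 9 were so as deposited, and the median over 16 was -1.33 (deposited -1.07).

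Other members followed: Anxa3 differed by -1.70, Il1rn by -1.63, Ly6d by -1.24, Krt7 by -1.20 and Msln by -1.11. The brightest probe set of Trim2 was also lower (-1.96), but 3 of its 5 others were at least 2-fold higher. Ctsl, a lysosomal protease, was on the higher side (0.48). The matrix genes Ccn1 (-0.75) and Ccn2 (17.3 and 8.71), both targets of the injury regulator YAP, were within 2-fold, and Ccn2 was under the filter. In the 4OHT pair Clu had 4132 and 1153, 5 members were at least 2-fold lower and the median was -0.59. Anxa3 (-0.27) and Il1rn (-0.30) in particular were closer to level there.

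**Figure D4:**
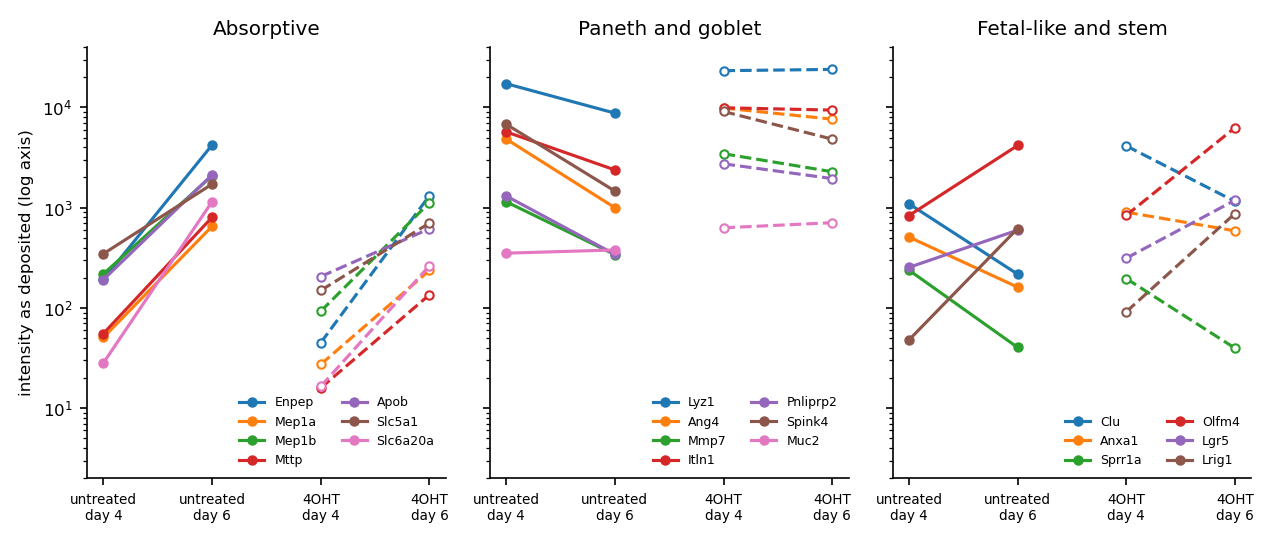
Deposited intensity on a log axis, by array, of genes from the absorptive, stem cell, Paneth cell, goblet cell and fetal-like lists. Arrays are of untreated and 4OHT organoids at day 4 and day 6. Spink4 and Muc2 are the goblet genes. In the untreated pair Enpep goes from 193 to 4216, while Ang4 goes from 4838 to 999.5 and Clu from 1093 to 217.

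Epithelial defence genes split into a higher and a lower set after normalization. Of 15 past the filter 7 reached 2-fold on the higher side and 5 on the lower (as deposited 8 and 2), and the median over 25 was 0.075. The higher set held antimicrobial lectins and homing chemokines. Reg3b had 1219 at day 4 and 10462 at day 6, Reg3g 74.1 and 1652, and Reg3a 77.8 and 654. Dmbt1, a mucosal scavenger protein, had 169 and 1097, and Ccl25, which draws lymphocytes to the small intestine, 341 and 2495. Ccl28 (1.36) and Nfkbiz (1.81) completed it. The lower set was Cxcl16 (-1.72), the NF-kappaB inhibitor Nfkbia (-1.67), Reg4 (-1.30), the neutrophil chemokine Cxcl1 (-1.22) and Tnfaip2 (-1.0). After 4OHT Dmbt1 had 33.5 and 58.9, a difference of 0.45.

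Antigen presentation genes had a median near 0, -0.091 over 15 (-0.18 as deposited, -0.17 in the 4OHT pair), with 6 of the 15 above 0 and 10 under the filter. The 3 at least 2-fold higher belong to class I. B2m, the light chain of class I molecules, had 217 and 1688 (4.52-fold), H2-D1 102 and 836, and H2-K1 331 and 1401. These were 3 of 5 past the filter, and none was at least 2-fold lower (as deposited 4 and none). H2 genes are similar in sequence, so their probe sets may share signal, and 1 other probe set of H2-K1 was at -1.34. The peptide transporter Tap1 was on the lower side (-0.83), and the class II gene H2-Aa (25.8 and 9.60) was under the filter. Interferon response genes were mostly dim, with 5 of 17 past the filter, none at least 2-fold higher and Oas1a lower (226 and 105). Their median was -0.14.

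Many genes of the unfolded protein response were higher and many of the integrated stress response lower at day 6. Unfolded proteins in the endoplasmic reticulum activate Atf6 and Xbp1, which bind the ER stress response element in promoters of chaperone genes, while phosphorylation of eIF2alpha raises Atf4, which binds a CEBP-ATF response element in genes for amino acid supply and stress. Promoters of members of both lists are printed to show these elements, from RefSeq (GRCm38.p6), as the 250 bases before the annotated start of the gene, 5′ to 3′ on the gene's strand. Capitals mark the match to the searched letters. Those printed were chosen among genes that hold the element and were called at 2-fold. They were higher at day 6 for the first list and lower for the second. For the ER stress response element these were CCAAT, then 9 bases of any kind, then CCACG, on either strand:

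Hspa5: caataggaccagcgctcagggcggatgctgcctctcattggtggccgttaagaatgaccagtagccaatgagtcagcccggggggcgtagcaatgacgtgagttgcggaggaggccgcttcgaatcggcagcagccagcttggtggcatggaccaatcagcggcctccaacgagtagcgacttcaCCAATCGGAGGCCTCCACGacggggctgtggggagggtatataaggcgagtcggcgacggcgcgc
Canx: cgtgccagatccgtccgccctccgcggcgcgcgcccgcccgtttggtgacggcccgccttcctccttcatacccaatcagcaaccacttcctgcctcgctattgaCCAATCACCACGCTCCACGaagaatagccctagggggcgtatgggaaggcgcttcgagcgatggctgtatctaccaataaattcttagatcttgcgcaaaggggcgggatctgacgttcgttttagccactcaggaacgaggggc
Pdia6: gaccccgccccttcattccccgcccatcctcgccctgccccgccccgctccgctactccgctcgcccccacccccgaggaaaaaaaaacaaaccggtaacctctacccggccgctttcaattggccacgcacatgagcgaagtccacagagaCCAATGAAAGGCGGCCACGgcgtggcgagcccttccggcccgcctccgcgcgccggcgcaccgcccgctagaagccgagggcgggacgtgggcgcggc

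For the CEBP-ATF element they were TGATGNAA, on either strand:

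Chac1: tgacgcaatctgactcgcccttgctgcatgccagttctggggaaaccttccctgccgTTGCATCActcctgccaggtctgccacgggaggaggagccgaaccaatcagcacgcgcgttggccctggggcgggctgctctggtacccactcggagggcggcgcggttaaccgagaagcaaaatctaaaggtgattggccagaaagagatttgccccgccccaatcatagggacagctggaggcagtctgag
Atf3: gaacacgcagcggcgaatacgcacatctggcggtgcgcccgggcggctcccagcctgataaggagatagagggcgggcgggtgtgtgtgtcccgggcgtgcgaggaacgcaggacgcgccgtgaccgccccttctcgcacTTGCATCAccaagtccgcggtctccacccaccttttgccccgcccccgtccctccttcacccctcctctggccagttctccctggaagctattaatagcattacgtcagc

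Hspa5 lies at chr2:34771840-34772089 (plus strand), Canx at chr11:50325674-50325923 (minus strand), Pdia6 at chr12:17266339-17266588 (plus strand), Chac1 at chr2:119350992-119351241 (plus strand) and Atf3 at chr1:191183334-191183583 (minus strand). In windows from 250 bases before to 50 after the start, the chaperone element occurred in 7 of the 16 unfolded protein response genes with a promoter entry (43.8%): Calr, Canx, Creld2, Dnajc3, Hsp90b1, Hspa5 and Pdia6. It occurred in 37 of 27025 genes overall (0.137%). Of the 9 such genes that were at least 2-fold higher at day 6, 3 held it. The other holders, Hsp90b1 (0.96), Calr (0.84), Creld2 (0.42) and Dnajc3 (-0.16), were within 2-fold. The CEBP-ATF element occurred in 7 of 18 integrated stress response genes (38.9%), namely Asns, Atf3, Chac1, Fgf21, Slc7a11, Trib3 and Vldlr, against 1219 genes overall (4.51%), and in 3 of the 10 that were at least 2-fold lower. These genes are textbook members of the 2 pathways, so the matches describe the lists and not the response.

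Of 18 unfolded protein response genes 10 were at least 2-fold higher and none lower (as deposited 12 and none), with a median of 1.12 (deposited 1.76, 4OHT pair 0.61). Hspa5, the main chaperone of the endoplasmic reticulum (BiP), had 456 at day 4 and 2772 at day 6, although its 2 other probe sets differed by -0.87 and 0.28. The lectin chaperone Canx had 323 and 2155, with both other probe sets at least 2-fold higher, and the disulfide isomerase Pdia3 134 and 1316 (5.56-fold). Herpud1, of the degradation machinery, had 51.7 and 382 (second probe set -0.26), and Dnajb9 32.9 and 179. Xbp1 itself differed by 1.56, Manf by 1.60 and Pdia6 by 1.23. Sel1l (-0.70) and Hyou1 (-0.40) were on the lower side, and Dnajc3, which holds the element, was near level (-0.16).

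Of 17 integrated stress response genes past the filter 10 were at least 2-fold lower and none higher, while as deposited 5 were lower and 1 higher, and the median over 19 was -1.07 (deposited -0.60, 4OHT pair -0.60). Ddit3, the pro-death factor CHOP, had 327 and 100.2 (4.52-fold lower), with its other probe set at -0.33. Chac1, which degrades glutathione, had 147 and 49.4, and Sesn2, a stress sensor, 94.0 and 29.7. Enzymes of serine and one-carbon metabolism were in the same set: Phgdh with 631 and 242 and all 3 other probe sets 2-fold lower, Mthfd2 with 272 and 117, and Psat1 (-1.29). Atf4 had 1017 and 980.1, a normalized difference of -0.73 and a deposited one of -0.053. The amino acid carrier Slc7a5 (0.34) and Cebpb (0.51) were on the higher side by less than 2-fold.

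**Figure D5:**
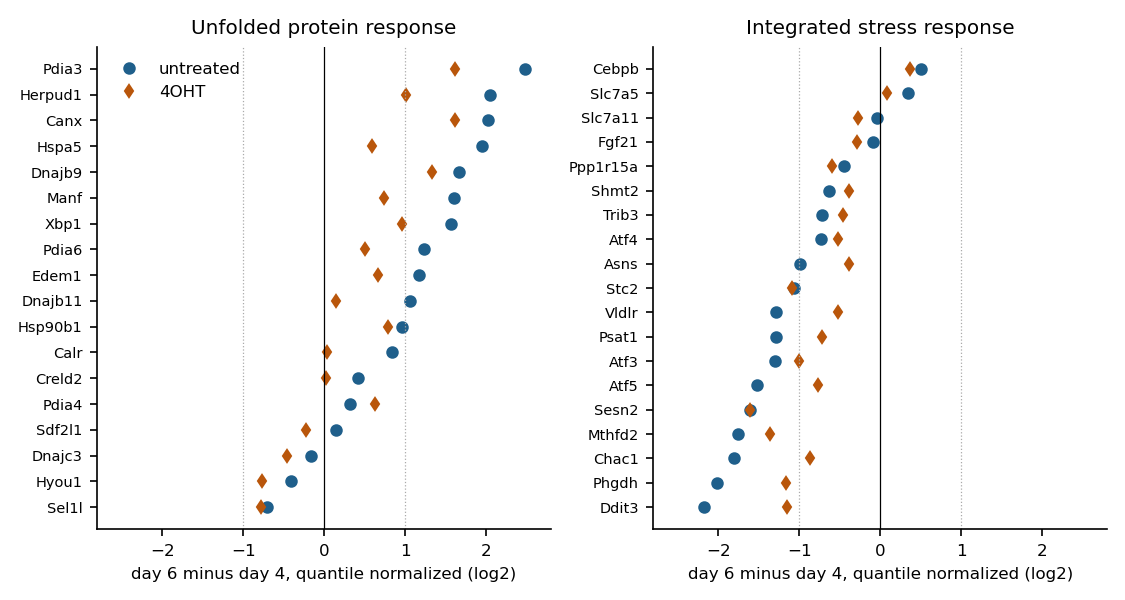
Log2 difference, day 6 minus day 4, after quantile normalization, of each member of the unfolded protein response and integrated stress response lists in untreated organoids and in the 4OHT pair. In untreated organoids 10 of 18 members of the first list lie above 2-fold, and 10 of 17 members of the second past the level filter lie below it.

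Antioxidant and metal genes were higher in part. Of 13 antioxidant genes past the filter 5 were at least 2-fold higher and none lower, and as deposited 10 and none (median of 15: 0.48, deposited 1.14). They were Sod2 (1.28), Gsr (1.26), Nqo1 (39.9 and 155), Cat (1.07) and Txn1 (1.04, second probe set -0.88). Hmox1, the inducible heme oxygenase, was under the filter, with 20.6 and 17.6. Of 11 metal handling genes 6 were higher and 1 lower (median of 12: 0.70). The metallothioneins Mt1 (4483 and 16341) and Mt2 (1609 and 8882), the zinc exporter Slc30a1 (21.8 and 255) and the iron oxidase Heph (39.6 and 530.2) were higher. So was the transferrin receptor Tfrc (1.14, second probe set -0.73), while the iron reductase Cybrd1 was lower (63.8 and 23.4).

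Genes of the p53 response and of acute stress had medians whose sign depended on the scaling. Of 13 p53 targets past the filter 1 was at least 2-fold higher, Perp (1.02), and 4 lower (as deposited 1 and 2), with a median of -0.18 after normalization and 0.032 as deposited. Mdm2, which degrades p53, had 293 and 80.7, but its other probe set was level (0.02). Cdkn1a had 625 and 502, and Aen differed by -1.12. Of 18 immediate early and heat shock genes 2 were higher, Fos (116 and 439) and Zfp36 (1.34), and 5 lower, among them Hspb1 (77.0 and 28.6) and Jund (1118 and 723). As deposited the counts turned to 6 higher and 1 lower. Their median was -0.18 after normalization, 0.13 as deposited and 0.072 with the mean of a gene's probe sets.

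The count of adhesion and junction genes on the lower side depended on the scaling. Of 17 keratin, claudin and junction genes past the filter 6 were at least 2-fold higher and 3 lower after normalization, while as deposited 9 were higher and none lower (median of 19: 0.42, deposited 1.11). The pore-forming Cldn15 (128 and 985) and Cldn2 (69.7 and 414), Cldn7 and Ocln, F11r (1.46) and Cldn23 (1.36) were higher. Cldn4 (282 and 147), Krt7 and Krt23 (-1.19) were lower after normalization. After 4OHT Cldn15 differed by 0.17 and Cldn4 by -0.21. Among matrix genes the laminin chain Lama5 was lower (269 and 50.1, second probe set -1.01) and the integrin chain Itga6 higher (132 and 628).

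Most differences between days had the same direction in organoids with recombined Apc. Over the 9097 genes the 2 pairs' differences had a Pearson r of 0.870 and a Spearman rho of 0.874, given as a description across genes, which are not independent, and 85.9% had the same sign. Of the untreated genes at least 2-fold higher 58.8% were also 2-fold higher in the 4OHT pair, and these 839 (9.22% of all) were 72.8% of that pair's higher genes. Of the lower genes 53.4% were also 2-fold lower there, 800 (8.79%), or 81.4% of that pair's lower genes. No gene was 2-fold higher in one pair and 2-fold lower in the other. The pairs share no array, but in both the spikes were dimmer and the 3' gaps smaller at day 6, as given above, and the part of these in the likeness was not tested. The 4OHT pair had fewer genes at 2-fold, 1152 higher (12.7%) and 983 lower (10.8%) after its own normalization, and 2085 higher (22.9%) and 321 lower (3.53%) as deposited.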

How the data were processed

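RNA from 4 mouse organoid samples, 1 for each condition, was labelled from 100 ng of total RNA and hybridized to Affymetrix 3' expression arrays, per the labels' protocols. The authors deposited 1 linear intensity per probe set and array, and the summarization, background correction and scaling behind these intensity values are not given in the sources used here. The deposited values were used as given for quoted intensities. Array precision is limited by their number, 1 a group, and no test was made.

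Of 45101 probe sets, 64 are controls, 34958 are annotated to 1 gene, 932 to several and 9211 to none, and 34741 of those to 1 gene matched a current gene record. Annotations are those of the array's platform, which can be old. The 2 untreated arrays were quantile normalized over 45037 probe sets, as were the 2 4OHT arrays, 16 was added and log2 taken (Python 3.11.15, numpy 2.4.6, pandas 2.3.3). Each of 18193 genes was represented by its brightest probe set, by mean deposited intensity on the 4 arrays. The 9097 genes whose mean log2 level was not below the median gene's were counted at 2-fold. The median intensity of the arrays was 22.0 at day 4 and 19.3 at day 6, with a 5th to 95th percentile range of 5.77 and 6.89 log2 units. The procedure was tested on simulated data in which a small set of probe sets was changed, equally up and down. The changes between these arrays are far broader, so that test does not measure the procedure's error here.

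Gene lists (47 lists, 797 entries, 730 measured) and the pair of arrays were chosen with earlier results of these data known. A rule picked the 15 genes with the largest difference in each direction that also differed by 2-fold as deposited. It passed over clone names and predicted genes (1 clone, at -3.20). It also picked the key members of each list, and up to 4 further members per list past the filter at 1.5-fold or more. The text leaves out some of these key and further members, among them Mcm2, Pcna, Cdk1 and Bmp7. Which ones are left out was not set by the rule. Other list members named were chosen after their values were seen. Promoter sequences came from RefSeq (GRCm38.p6). The alternatives were other scalings, added values, filters, probe set rules and thresholds.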

Additional observations from a re-analysis of the deposited data

Results flagged for a closer look

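Jag1, a Notch ligand, and Ppara, a regulator of fatty acid oxidation, had opposite directions in untreated and 4OHT organoids. Jag1 had an intensity of 28.9 at day 4 and 82.4 at day 6 in untreated organoids, a normalized log2 difference of 0.92, and 75.9 and 59.3 after 4OHT, a difference of -0.62. Ppara had 53.3 and 149 in untreated organoids, a difference of 0.76, and 67.6 and 44.0 after 4OHT, a difference of -0.74. With 1 array for each condition the difference between the pairs was not tested, and none of the 4 values reached 2-fold.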

How the results depend on the processing

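The counts of genes higher and lower at day 6 (1428 and 1498) became 3008 and 594 as deposited, 2948 and 613 with median centring, 737 and 815 with 64 added, 589 and 806 with a filter at the 75th percentile, 831 and 638 with the mean of a gene's probe sets, 2598 and 2575 at 1.5-fold, and 525 and 498 at 3-fold. They stayed within 1.5 times under quantile normalization of all 4 arrays, with 1 added, with no filter, with a filter on the highest value, and without probe sets of shared or mixed match.

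As deposited, and with median centring as the second value, list medians moved by over 1.5-fold for cholesterol synthesis (0.79, 0.77), stem cell markers (1.18, 1.17), fatty acid synthesis (0.93, 0.91), ion transport (1.85, 1.84), keratins and claudins (1.11, 1.10), microvillus (0.63, 0.62), antioxidant (1.14, 1.13), respiratory chain (1.42, 1.41), ribosome biogenesis (0.76, 0.75), sugar uptake (0.97, 0.96), unfolded protein response (1.76, 1.75) and xenobiotic genes (2.14, 2.12). As deposited the glycolysis median was -0.20 and the mitosis median 1.07. Signs reversed for hypoxia-inducible (0.29, 0.27), villus tip (0.20, 0.19), p53 target (0.032, 0.018) and immediate early genes (0.13, 0.12). A reversal was counted only where the median after quantile normalization was at least 0.1 in size. Below that size, signs also changed as deposited for microvillus genes (from -0.065 to 0.63), differentiation factors (from -0.034 to 0.50) and BMP genes (from -0.074 to 0.14). As deposited, the shift of 0.56 over the genes past the filter stays in these values.

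With members above the 75th percentile only, medians moved for antigen presentation (1.76), brush border (2.28), goblet (-0.59), immune (-1.90), metal handling (1.40), defence (1.90), Paneth (-2.38) and region markers (2.27), and reversed for immediate early (0.12), integrin and laminin (0.065), ribosome biogenesis (-0.0028) and Wnt target genes (0.59). With the members past the level filter, an alternative chosen after seeing the data, they moved for antigen presentation (1.35), fibroblast (-0.80), immune (-1.14), Paneth (-2.05) and region markers (2.27), and reversed for endothelial markers (0.21). The immediate early median was 0.072 with the mean of probe sets and 0.081 without probe sets of shared or mixed match. These alternatives use fewer or other probe sets.

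A reversal was counted only for genes picked by the naming rule that differed by at least 2-fold after quantile normalization. Of 259 genes picked by the rule, not all of them named in the text, 8 reversed in this sense. All 8 did so through the choice of probe set. Smaller differences were not counted and could change sign with the scaling. For example, Ascl2 was -0.36 after normalization and 0.27 as deposited, and Cdx2 -0.066 and 0.63. With the mean of probe sets Axin2 gave -0.51, Nrarp -0.046, Pnisr 0.67, Rsrc2 0.024, Slc4a4 0.37, Sox4 -0.83 and Trim2 0.42. Without probe sets of shared or mixed match Fam122a gave 0.10 and Trim2 2.21. No paired analysis was possible because each condition has 1 array, and for the same reason no array could be left out.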

Other observations

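Probe sets that the array annotation ties to no gene had more values on the lower side than named ones. Of 1496 such probe sets bright enough to be counted, 15% reached 2-fold on the higher side at day 6 and 21.6% on the lower. Of 14192 probe sets with 1 gene, 16.9% were higher and 14.8% lower. What these unnamed probe sets measure was not analysed here.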
